A study of Mus musculus with 24 samples.

Results

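*Spry1*, *Spry2*, *Spry4*, *Dusp4*, *Dusp5*, *Dusp6*, *Etv4*, *Etv5*, *Spred1* and *Spred2* are genes whose transcription is known to follow signalling by fibroblast growth factor (FGF) and epidermal growth factor (EGF). They were taken by gene symbol from a table of 54658 genes, and all 10 were listed in it. RNA was sequenced from dorsal telencephalon of mouse embryos homozygous for a *Cep135* allele with a deletion of 8 bp, called Cep135 (-/-) in the labels and mutants here, and of Cep135 (+/+) embryos, called controls. The 24 libraries came from 3 mutant cortices (A, B and C) and 3 control cortices (D, E and F) at E11.5, 3 mutant cortices (1, 2 and 6) and 3 control cortices (3, 4 and 5) at E14.5, and cultures of the same 6 E14.5 embryos after 12 and 24 hours. For culture, E14.5 dorsal telencephalon was dissociated with papain and the cells were kept in suspension in a medium with N2, B27, heparin, EGF and FGF2, in which progenitors begin to form neurospheres. The allele is constitutive, so all tissues of a mutant carry it. The names of the 6 E14.5 embryos share 1 prefix, and those of A and D share another. E and F share still another, which B and C have in their titles but not in their descriptions or table columns, and the labels do not say what a prefix stands for. One label of the cortex of mutant 6 gives E11.5 and the others E14.5, and it was used as E14.5.

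In GENCODE vM21 (GRCm38) the Sprouty genes lie at chromosome 3, 37639947 to 37644598 on the plus strand (*Spry1*, ENSMUSG00000037211), chromosome 14, 105891947 to 105896819 on the minus strand (*Spry2*, ENSMUSG00000022114), and chromosome 18, 38586247 to 38601415 on the minus strand (*Spry4*, ENSMUSG00000024427). The phosphatase genes lie at chromosome 8, 34807297 to 34819894 on the plus strand (*Dusp4*, ENSMUSG00000031530), chromosome 19, 53529109 to 53542431 on the plus strand (*Dusp5*, ENSMUSG00000034765), and chromosome 10, 99263231 to 99267489 on the plus strand (*Dusp6*, ENSMUSG00000019960). *Etv4* (ENSMUSG00000017724) lies at chromosome 11, 101769742 to 101785371 on the minus strand, and *Etv5* (ENSMUSG00000013089) at chromosome 16, 22381309 to 22439719 on the minus strand. *Spred1* (ENSMUSG00000027351) lies at chromosome 2, 117121374 to 117182279 on the plus strand, and *Spred2* (ENSMUSG00000045671) at chromosome 11, 19924375 to 20024026 on the plus strand. No member overlaps another annotated gene on its own strand, and the reads were counted by strand.

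FGF and EGF bind receptor tyrosine kinases at the cell surface, and the signal passes through Ras, Raf and MEK to the kinase ERK. ERK signalling switches on genes whose products damp the same pathway, a negative feedback loop. In the embryonic cortex FGF signalling keeps progenitors dividing and patterns the anterior telencephalon, and in culture EGF and FGF2 support the growth of neural progenitors. The Sprouty proteins (*Spry1*, *Spry2*, *Spry4*) and the Spred proteins (*Spred1*, *Spred2*) restrain the pathway at the level of Ras and Raf. *Dusp4*, *Dusp5* and *Dusp6* encode phosphatases that switch ERK off, DUSP6 in the cytoplasm and DUSP4 and DUSP5 in the nucleus. *Etv4* and *Etv5* encode transcription factors of the ETS family that carry the response to FGF.

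Promoter sequences of 300 bases, from 250 bases before a RefSeq start to 50 after it, were at hand for 7 of the 10 members, with 8 starts (GRCm38.p6). They were searched on both strands for the letters CGGAAG, a core of the sites that ETS factors bind, for TGACGTCA (the CRE) and for TGACTCA (the AP-1 site). Of the 8 windows 3 held CGGAAG, those of *Dusp6*, *Spred1* and *Spred2*, against 16.9% of the 32851 mouse windows of the same length. None of the 8 held the CRE or the AP-1 letters, which occurred in 1.79% and 5.2% of all windows. The windows of *Dusp6*, *Spred2* and *Spry2* are printed because these genes responded to culture by different amounts, and the capitals mark the CGGAAG letters, here read from the other strand as CTTCCG. The windows are chr10:99262981-99263280 on the plus strand for *Dusp6*, chr11:19924192-19924491 on the plus strand for *Spred2* and chr14:105896770-105897069 on the minus strand for *Spry2*, which held no match.
Dusp6: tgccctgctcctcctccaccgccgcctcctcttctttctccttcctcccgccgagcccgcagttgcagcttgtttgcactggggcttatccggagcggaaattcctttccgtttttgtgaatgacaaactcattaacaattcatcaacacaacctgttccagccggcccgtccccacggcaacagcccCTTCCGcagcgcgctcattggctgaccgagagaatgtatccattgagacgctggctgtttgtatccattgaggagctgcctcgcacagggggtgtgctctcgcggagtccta
Spred2: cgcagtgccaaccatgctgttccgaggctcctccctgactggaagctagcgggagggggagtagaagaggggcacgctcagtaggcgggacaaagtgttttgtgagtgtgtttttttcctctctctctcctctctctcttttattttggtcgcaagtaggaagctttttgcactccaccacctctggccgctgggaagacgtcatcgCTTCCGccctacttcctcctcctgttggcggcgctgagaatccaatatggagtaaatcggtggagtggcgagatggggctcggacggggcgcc
Spry2: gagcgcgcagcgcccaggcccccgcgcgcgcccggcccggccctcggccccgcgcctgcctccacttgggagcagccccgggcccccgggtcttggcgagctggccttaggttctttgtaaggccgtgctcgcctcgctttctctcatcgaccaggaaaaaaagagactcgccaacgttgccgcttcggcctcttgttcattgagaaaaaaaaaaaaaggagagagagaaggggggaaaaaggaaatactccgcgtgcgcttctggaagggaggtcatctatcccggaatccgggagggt
The match began 62 bases before the start in *Dusp6* and 43 bases before it in *Spred2*. The fold changes of the 3 genes in culture are given with their families below, and a match in these letters is a description only.

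Values are normalized read counts, the authors' counts of 3′ reads per gene divided by 1 size factor per library, and they are compared for a gene between libraries and not between genes. The libraries held 4732781 to 11645213 reads on genes (23 libraries with recovered read numbers). Behind the members stood 8 to 71 reads per library for *Spry1*, 4 to 271 for *Spry4* and 134 to 1878 for *Etv5*. In cortex *Spry4* thus rested on few reads (4 to 12 at E14.5), and so did *Spry1* at E14.5 (8 to 14). *Cep135* itself had 171 to 283 in E14.5 cortex and 201 to 336 at 12 hours with overlapping genotypes, and tags at the 3′ end of a gene do not show a small deletion, so its level does not check the labels. A transcript with ribosomal sequence, *Gm42418*, took 6.11% to 34.8% of the normalized counts of a library. The labelled cell type was checked with 10 markers of apical progenitors, none of them at 0 throughout a condition. Their summed count was 9945 to 12163 in the 6 E14.5 cortices and 8696 to 12152 in the 6 cultures at 12 hours (1 higher and 6 lower by the test used below). The summed markers of postmitotic neurons, 10 genes, were 36557 to 49457 and 33089.5 to 51429, so the cultures labelled as cortical progenitors also held neuronal RNA.

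Cells in culture were first compared with the cortex they came from, since the medium supplied EGF and FGF2 and the members are feedback targets of both. After 12 hours 9 of the 10 members had risen over E14.5 cortex, from 1.74-fold for *Spred2* to 11.9-fold for *Spry4* (limma on log2 of the count plus 1, genotype as a term, Benjamini-Hochberg adjusted p under 0.05 over 13601 genes). *Spred1* was the exception, at a log2 change of 0.24. In the same comparison 14.1% of all genes tested rose and 16.1% fell. The median log2 change was 2.60 over the members and -0.06 over all genes. After 24 hours all 10 members were above E14.5 cortex by the same test, against 20.1% of genes that rose and 21.5% that fell, with a median of 2.71. Both comparisons use the same 6 cortices. Dissociation, the medium with its growth factors and time in culture differ together between cortex and culture, no culture without the factors was made, and these cannot be told apart. Fold changes are on the scale of the count plus 1, which understates those of low genes.

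**Figure D1:**
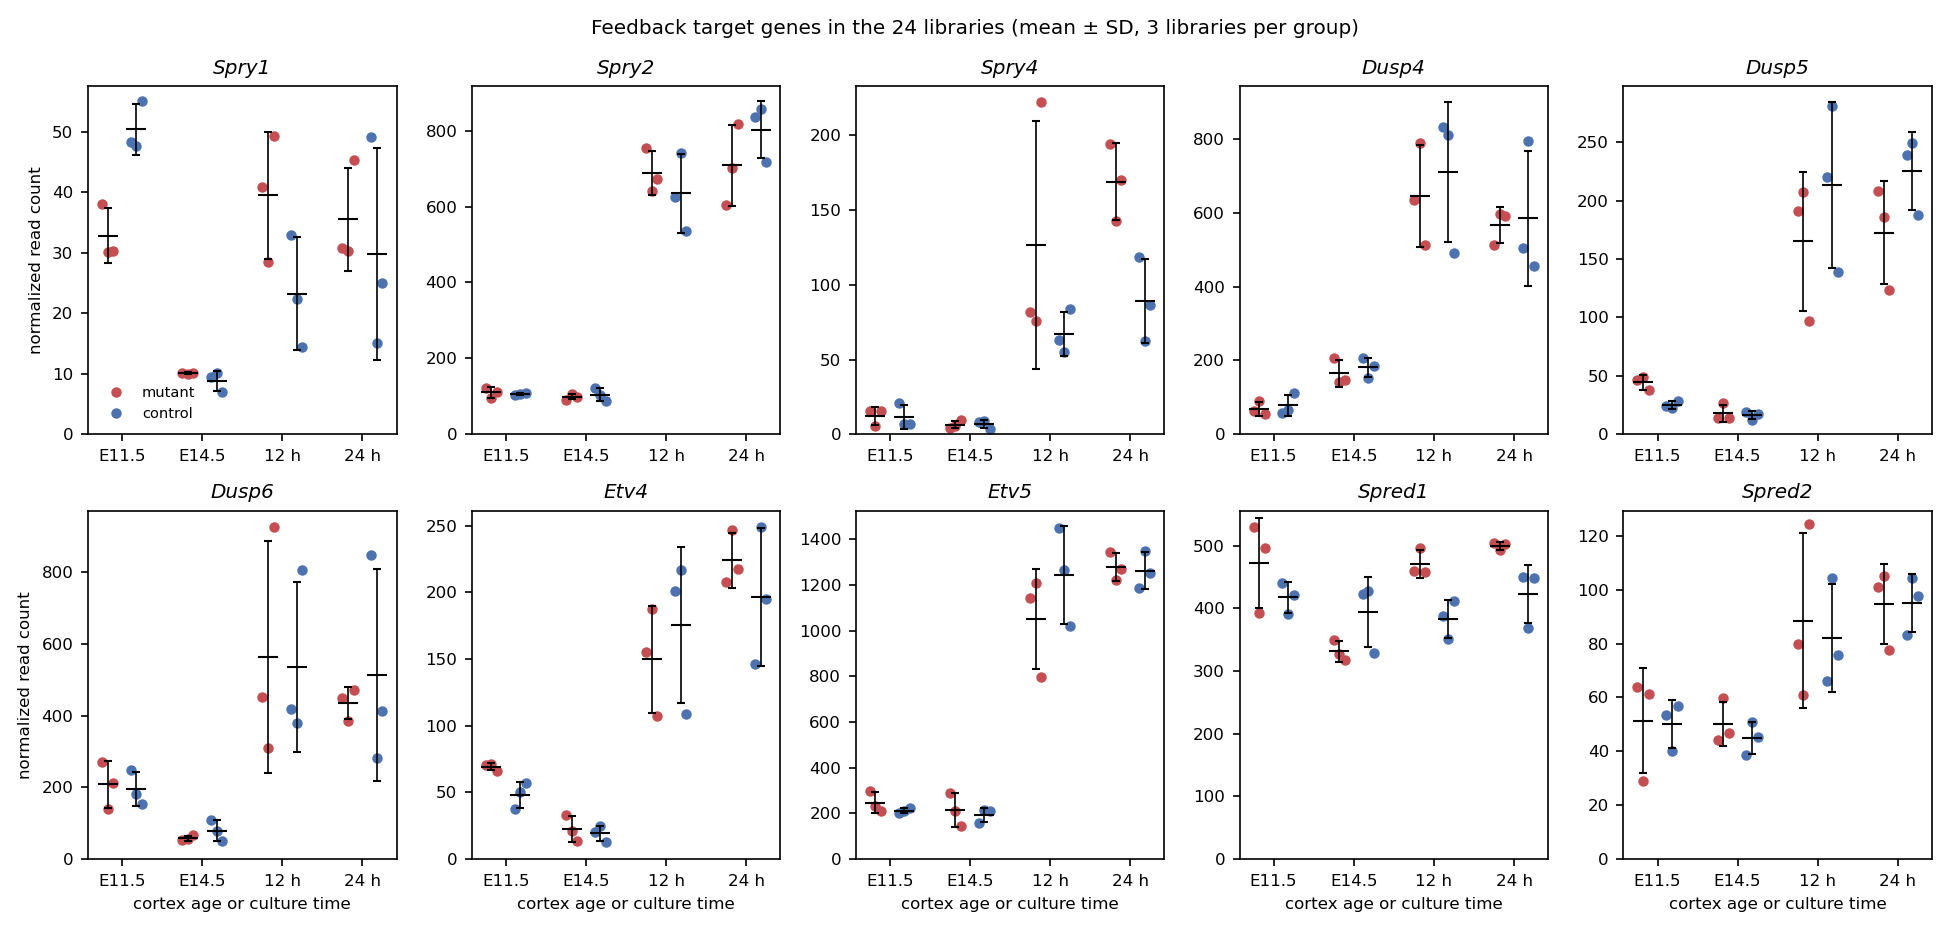
Normalized read count of each member (vertical axes, linear from 0, each with its own range) in E11.5 cortex, E14.5 cortex and cultures of 12 and 24 hours. Points are libraries of mutants (red) and controls (blue), and bars are the mean ± SD of 3 libraries. Apart from *Spred1*, all culture points lie above all E14.5 points. The share of all genes for which this holds was not counted.

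*Spry2*, a Sprouty gene, rose in each of the 6 embryos. The cortices of mutants 1, 2 and 6 held 91.5, 105 and 98.7, and those of controls 3, 4 and 5 held 121, 102 and 87.2. Cultures of 12 hours held 754, 641 and 674 (mutants) and 624, 742 and 537 (controls), and those of 24 hours 604, 702 and 819 and 836, 856 and 716. Cortex and culture did not overlap, and the log2 change of single embryos at 12 hours ranged from 2.36 to 3.03. In the fit *Spry2* rose 6.50-fold at 12 hours (log2 2.70, SE 0.13, limma adjusted p 6.63e-10) and 7.41-fold at 24 hours (log2 2.89, SE 0.11).

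*Spry4* had the largest fitted fold of the 10 members. It was near the limit of detection in E14.5 cortex, where the mutants had 4.52, 5.52 and 9.40 and the controls 8.23, 8.71 and 3.49. Cultures of 12 hours had 81.9, 75.8 and 222 for mutants against 62.9, 55.2 and 83.5 for controls, with mutant 6 far above the other 5. After 24 hours the mutant counts were 194, 143 and 170.2 and the control counts 119, 62.4 and 86.3. The rise was 11.9-fold at 12 hours (log2 3.57, SE 0.36, limma adjusted p 3.27e-06) and 16.6-fold at 24 hours (log2 4.06, SE 0.29), and it was seen in 6 of 6 embryos at both times.

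*Spry1* had the smallest fitted rise of the Sprouty genes. Its E14.5 counts lay from 6.97 to 10.2 with a median of 10.05. In culture they lay from 14.4 to 49.3 at 12 hours (median 30.7) and from 15.2 to 49.2 at 24 hours (median 30.6). Every culture was above every E14.5 cortex. The fitted rise was 2.90-fold at 12 hours (log2 1.54, SE 0.34, limma adjusted p 0.00326) and 3.03-fold at 24 hours. The 12-hour rise missed the threshold in controls alone (log2 1.24, adjusted p 0.142) and with a term for the *Gm42418* share (log2 1.23, adjusted p 0.0922).

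The phosphatase genes also rose, with different spreads. *Dusp5* went from 13.5, 26.5 and 14.1 in mutant and 18.8, 12.3 and 17.4 in control E14.5 cortices to 191, 207 and 96.7 and 220.2, 281 and 139 at 12 hours. That is a 10.2-fold rise (log2 3.36, SE 0.27, limma adjusted p 3.11e-07), followed by 11.1-fold at 24 hours. *Dusp4* was already at 141 to 208 in E14.5 cortex (median 169) and reached 493 to 832 at 12 hours (median 712) and 455 to 795 at 24 hours (median 553). Its fold was 3.86 at 12 hours (log2 1.95, SE 0.16, limma adjusted p 3.11e-07) and 3.30 at 24 hours.

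*Dusp6*, the cytoplasmic phosphatase of ERK, rose in all embryos but by unlike amounts. The E14.5 cortices had 53.1, 56.3 and 66.6 (mutants) and 108, 77.7 and 49.7 (controls). The 12-hour cultures of mutants 1, 2 and 6 had 453, 310.4 and 928, and those of controls 3, 4 and 5 had 418, 380.5 and 808, so that 1 embryo of each genotype stood apart. The corresponding 24-hour counts were 451, 386 and 471 and 848, 281 and 413, with control 3 highest. The change of single embryos at 12 hours ranged from 1.94 to 3.996 on the log2 scale, and the fit gave 7.56-fold (log2 2.92, SE 0.26, limma adjusted p 7.76e-07) and 6.69-fold at 24 hours.

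The ETS factor genes rose together. The mutant cortices of E14.5 had *Etv4* counts of 32.7, 20.98 and 13.3 and the control cortices 20, 24.7 and 13.1, and the 12-hour cultures had 155, 187 and 107 and 201, 217 and 109. This was a 7.59-fold rise (log2 2.92, SE 0.27, limma adjusted p 1.32e-06), and at 24 hours the fold was 10.02. For *Etv5* the E14.5 counts were 290.2, 209.8 and 145 (mutants) and 158, 213 and 208 (controls), and the 12-hour counts 1145, 1209 and 799 and 1447, 1265 and 1020.3. *Etv5* thus rose 5.65-fold (log2 2.499, SE 0.17, limma adjusted p 4.37e-08), and 6.36-fold at 24 hours. For both genes mutant 6 and control 5 had the lowest 12-hour counts of their genotype.

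The Spred genes changed least. *Spred2* had 38.8 to 59.6 in E14.5 cortex (median 46.2), 61.03 to 125 at 12 hours (median 77.9) and 77.7 to 105 at 24 hours (median 99.3). Its rise was 1.74-fold at 12 hours (log2 0.80, SE 0.22, limma adjusted p 0.0114) and 1.98-fold at 24 hours (adjusted p 1.08e-04). The 12-hour call was lost in controls alone (log2 0.84), in mutants alone (0.76), without embryos 5 and 6 (0.66) and with a term for the *Gm42418* share (0.56).

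*Spred1* is an inhibitor of Ras signalling that was already well expressed in cortex. Mutant cortices of E14.5 had 350.03, 328 and 317, and control cortices 424, 428 and 329.5. At 12 hours the counts were, in the same order, 459, 497 and 458 and 389, 351 and 411, and at 24 hours 504, 493 and 502 and 451, 369 and 449. The mutant cultures were above the mutant cortices, while control cultures and control cortices overlapped. In the fit the log2 change was 0.24 at 12 hours (SE 0.12, limma adjusted p 0.152) and 0.35 at 24 hours (SE 0.11, adjusted p 0.0185). The 24-hour call was lost without embryo 1, 2, 5 or 6, at log2 changes of 0.29 to 0.33 in those 4 fits, and in controls alone (0.11) and with quantile normalization (0.28).

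Other cell types changed between cortex and culture along with the members. The summed markers of endothelium (7 of 7 lower by the same test) were 1009 to 1161 in the 6 E14.5 cortices and 31.1 to 125 in the 6 cultures at 12 hours. Those of microglia (7 of 8 tested, all 7 lower) were 444 to 998 in cortex and 7.37 to 51.9 in culture. Those of meninges and vessel wall (5 of 5 lower) were 1434 to 2442 and 118 to 256. Erythroid markers, 9 genes of which 8 rose, were 38256 to 45371 in cortex and 69448 to 153171 in culture. Of these lists, 1 gene of endothelium was at 0 in the 3 control cultures of 12 hours and 1 of microglia in the 3 mutant ones. Fewer cells of a type and less RNA per cell cannot be told apart in these samples, and the part of this change in the members' values was not tested.

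**Figure D2:**
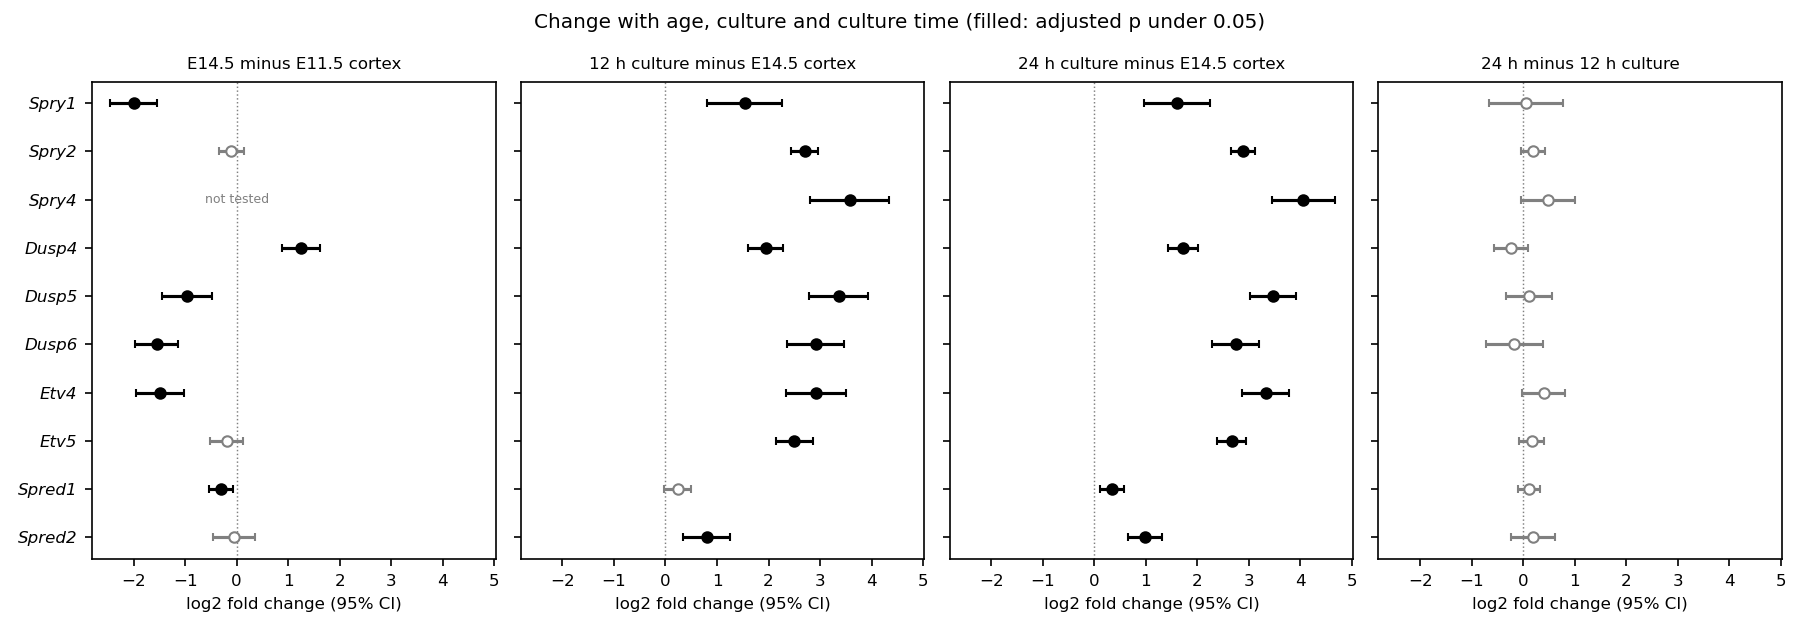
Log2 fold change (horizontal axis) of each member with its 95% confidence interval from limma, for age, culture of 12 and 24 hours against E14.5 cortex, and the 2 culture times. Filled points passed an adjusted p of 0.05. At 12 hours 9 members are filled and at 24 hours 10, all to the right of 0, and none is filled between the culture times. *Spry4* was not tested for age.

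Between 12 and 24 hours of culture, no member passed the test, and none had an unadjusted p under 0.05 in limma, edgeR or DESeq2 (9.64% of all genes in limma). The log2 changes ran from -0.23 to 0.48, the last being that of *Spry4* (SE 0.25, limma adjusted p 0.558, 95% interval -0.05 to 1.01). Over all genes tested, 0.15% rose and 0.142% fell. *Spry2*, *Spry4*, *Etv4*, *Etv5* and *Spred1* were higher at 24 hours in 5 of 6 embryos, and *Dusp4* was lower in 5 of 6. The share of all genes with such counts of embryos was not taken, so they are a description only. *Dusp6* went up in 2 embryos and down in 4, from -0.98 to 1.02 on the log2 scale.

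The culture libraries differed among themselves in which feedback genes were high. Mutant 6 at 12 hours, control 3 at 24 hours and control 5 at 12 hours had the highest *Dusp6* counts of the 12 cultures (928, 848 and 808). The same 3 libraries had the lowest *Etv4* counts of the 12 (107, 146 and 109). The 2 lowest *Dusp6* counts, in control 4 at 24 hours (281) and mutant 2 at 12 hours (310.4), went with *Etv4* counts of 249 and 187. This contrast was singled out after the values were seen, the 12 libraries come from 6 embryos, and no test was made of it. *Dusp4* in the 3 libraries with most *Dusp6* was 513, 505 and 493, within the range of the other cultures at 24 hours but below the others at 12 hours. Read numbers were 10620164, 5271654 and 9635546 in these 3 libraries, against 4732781 to 11645213 over all 12 cultures. At 12 hours mutant 6 and control 5 had the most reads, where the other cultures had 5248040 to 8631534. Genes above 0 numbered 16377 in mutant 6, the fewest of all libraries, 19490 in control 3 and 20638 in control 5. The share of *Gm42418* in these 3 libraries was 32.7%, 9.44% and 10.7%, and that of control 5 was the lowest at 12 hours. The part of read number, of the number of genes above 0 and of this share in the contrast was not tested. Without embryos 5 and 6, *Dusp6* at 24 hours against 12 hours had a log2 change of 0.22, where the fit of all 6 embryos gave -0.18, and neither passed the test.

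**Figure D3:**
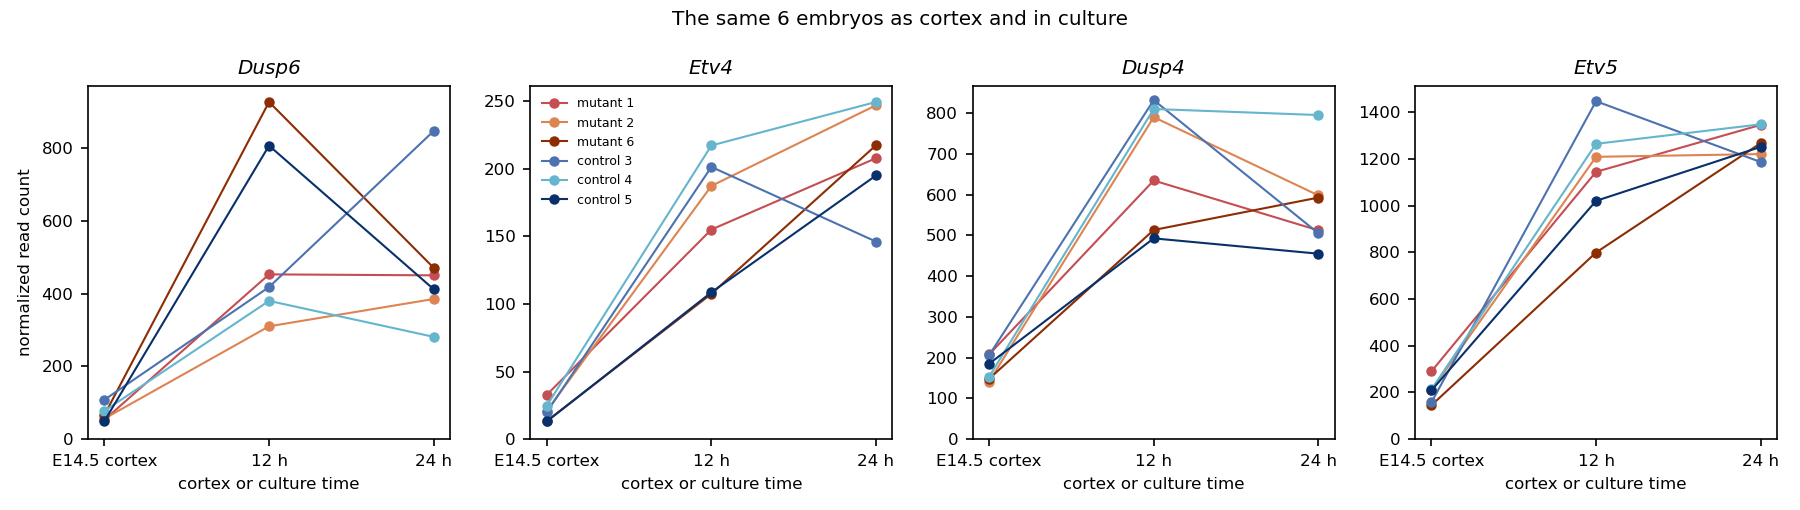
Normalized read count (vertical axes, linear from 0) of *Dusp6*, *Etv4*, *Dusp4* and *Etv5* in the cortex and the 12- and 24-hour cultures of each E14.5 embryo, joined by a line. Mutants are in red and orange shades, controls in blue shades. Mutant 6 and control 5 are the 2 highest for *Dusp6* and the 2 lowest for *Etv4* at 12 hours, and control 3 takes both places at 24 hours.

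With age, from E11.5 to E14.5, the cortex lost transcripts of most members that changed. It was possible to test 9 members (*Spry4* was under a mean of 10), and 5 of them fell while 1 rose (limma with genotype and age as terms). Of all 13650 genes tested, 29.3% fell and 23.8% rose, and the median log2 change was -0.30 over the 9 members and -0.08 over all genes. No name prefix was shared between the ages, so age and whatever a prefix stands for cannot be told apart.

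*Spry1* fell most. At E11.5 the mutants (A, B, C) had 38.1, 30.1 and 30.3 and the controls (D, E, F) 48.4, 47.7 and 55.2, and at E14.5 the counts were 10.2, 9.94 and 10.2 and 9.41, 10.2 and 6.97. Its ages did not overlap, and the log2 change was -1.998 (SE 0.21, limma adjusted p 1.05e-06). *Dusp6* went from E11.5 counts of 272, 141 and 213 (mutants) and 248, 182 and 155 (controls) to the E14.5 counts given above, a log2 change of -1.56 (SE 0.20, adjusted p 7.54e-06), again without overlap. For *Etv4* the E11.5 counts were 70.3, 71.4 and 66.3 (mutants) and 37.3, 50.2 and 56.7 (controls), all above those of E14.5, and the log2 change was -1.49 (SE 0.22, adjusted p 3.76e-05). All 12 cultures lay above E11.5 cortex for *Dusp6* and *Etv4*, while for *Spry1* cultures and E11.5 cortex overlapped, a comparison that was not tested.

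*Dusp5* fell by 0.96 on the log2 scale (SE 0.23, limma adjusted p 0.0021), with counts of 22.6 to 49.1 at E11.5 and 12.3 to 26.5 at E14.5 that overlapped. In controls alone its change was -0.62 and did not pass (adjusted p 0.14). *Spred1* fell by 0.30 on the log2 scale (SE 0.11, adjusted p 0.0308), with overlapping ages. Its call was lost in 6 of the 12 fits that left out 1 library (A, C, 1, 2, 5 or 6), where adjusted p reached 0.08, and in controls alone (log2 -0.09). *Dusp4* went the other way, with 54.1 to 111 at E11.5 (median 64) and 141 to 208 at E14.5 (median 169), a rise of 2.39-fold (log2 1.26, SE 0.17, adjusted p 1.60e-05).

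*Etv5*, *Spry2* and *Spred2* did not pass the test between the ages. *Etv5* had 204 to 298 at E11.5 and 145 to 290.2 at E14.5, and its 95% interval of log2 change was -0.51 to 0.12. The interval was -0.34 to 0.14 for *Spry2* and -0.47 to 0.36 for *Spred2*. *Spry4* had 5.58 to 21.2 at E11.5 and 3.49 to 9.40 at E14.5. Over the same ages the summed markers of postmitotic neurons (10 of 10 higher) were 9429.8 to 14162 at E11.5 and 36557 to 49457 at E14.5. Those of apical progenitors (8 of 10 lower, 2 higher) were 15602 to 19612 and 9945 to 12163. Markers of meninges and vessel wall (4 of 5 lower, 1 higher) were 1838 to 7342 and 1434 to 2442. The part of these cell types in the members' change was not tested.

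Mutants and controls were then compared within each condition. No member passed the test in any of them. In E11.5 cortex 0 of 10 members passed, against 0.0149% of all genes. An unadjusted p under 0.05 was found for 3 members and for 7.39% of all genes. In E14.5 cortex, where *Spry1* and *Spry4* were under a mean of 10, 0 of 8 passed, against 0.0736% of genes, and none had an unadjusted p under 0.05 in limma, edgeR or DESeq2 (9.1% of all genes in limma). At 12 hours 0 of 10 passed in limma, edgeR and DESeq2, where 0% of genes passed in limma, and the counts at an unadjusted p under 0.05 were 0, 0 and 1 (4.85% of all genes in limma). At 24 hours 0 of 10 passed with these tools, against 0.271% of genes in limma. At an unadjusted p under 0.05 there was 1 member with each tool, *Spry4* in limma, and 10.6% of all genes in limma. Over the 12 cortices with age as a term, 0 of 9 passed in limma and 0 had an unadjusted p under 0.05 (8.71% of all genes), where 0.0952% of genes were higher and 0.044% lower in mutants.

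At E11.5 the genotypes did not overlap for 3 of the 10 members, against 13.3% of all genes. *Dusp5* had 46.4, 49.1 and 37.5 in the mutant cortices against 24.2, 22.6 and 28.8 in the control cortices (log2 difference 0.79, SE 0.24, limma adjusted p 0.585). *Etv4*, with the counts given above, was higher in all 3 mutants by 0.54 (SE 0.21, adjusted p 0.63). *Spry1* was lower in all 3 mutants, at a log2 difference of -0.61 (SE 0.22, adjusted p 0.612). For B and C the labels conflict on the name prefix, so a difference between prefixes and one between genotypes cannot be told apart among B, C, E and F. *Dusp6*, *Spry2*, *Spry4*, *Dusp4* and *Spred2* overlapped, with log2 differences from -0.17 to 0.14, and so did *Etv5* (0.20) and *Spred1* (0.17). Summed markers of liver (10 genes, 5 tested, 0 called, 4 of 10 at 0 in all 3 controls) were 79.2 to 858 in these mutants and 48.97 to 51.4 in the controls. Those of endothelium (7 genes) were also higher, at 1292 to 1484 against 1105 to 1248, and those of ventral telencephalon (8 genes) lower, at 1627 to 2164 against 2255 to 2668. Of 10 markers of postmitotic neurons 5 had an unadjusted p under 0.05 (median log2 difference -0.37), and none of these lists held a called gene. The part of these cell types in the differences was not tested. At E14.5 the genotypes overlapped for all 10 members, where 13.7% of genes did not overlap. Summed markers of microglia (8 genes, 1 called higher) were 798 to 998 in these mutants and 444 to 504 in the controls. Those of postmitotic neurons (10 genes, 1 called lower) were 36557 to 37741 and 46584 to 49457. The other summed lists overlapped, though all 6 liver markers tested had an unadjusted p under 0.05 in limma (median log2 difference -3.61, 0 called). The part of these cell types was not tested.

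In culture, *Spred1* and *Spry4* had groups that did not overlap. At 12 hours only *Spred1* of the 10 did so, against 11% of genes, with the mutants higher by 0.30 on the log2 scale (SE 0.18, limma adjusted p 0.913). The choroid plexus markers summed to 4579 to 15869.7 in these mutants, against 985 to 3706 in control cultures. Summed markers of endothelium (91.6 to 125 against 31.1 to 66.9), intermediate progenitors (1459 to 1666 against 1239.6 to 1326) and microglia (7.37 to 20.47 against 28.2 to 51.9) did not overlap either. At 24 hours *Spred1* was again higher in the 3 mutants, by 0.25 (SE 0.14, adjusted p 0.583). *Spry4* at 24 hours was 169 ± 25.8 (SD, n = 3) in mutants and 89.1 ± 28.3 in controls, a log2 difference of 0.95 (SE 0.25, limma adjusted p 0.137). These are 2 of 10 members, against 16.2% of genes at 24 hours. The mutant and control cultures of 24 hours also differed in other ways. Read numbers were 7903426 to 11645213 in mutants and 4732781 to 5709443 in controls, and *Gm42418* took 20.52% to 23.05% and 6.26% to 13.9% of the counts. The summed markers of choroid plexus (5 genes, 2 of 3 tested higher in mutants) were 4911 to 16599 and 775 to 3551, and those of liver (10 genes, 2 of 5 tested higher, 6 of 10 at 0 in all 3 controls) 118 to 394 and 11.3 to 26.96. Apical progenitor markers (10 genes, 0 called) were 12503 to 13867 in mutants and 9816 to 11195 in controls, and intermediate progenitor markers (5 genes, 0 called) 1275 to 1376 and 1001 to 1100.2. Postmitotic neuron markers (10 genes, 1 called lower) were 33463 to 40665 and 42023 to 49903, and those of meninges and vessel wall (5 genes, 0 called) 224 to 289.8 and 146 to 182. With a term for the *Gm42418* share the difference in *Spry4* was 1.34 (limma adjusted p 0.939). Sex was read from *Xist* against Y-linked genes. By that reading the E14.5 controls and mutant 6 were male and mutants 1 and 2 female, so that sex and genotype largely coincide. With a term for sex the difference in *Spry4* was 0.97 (limma adjusted p 0.335). The range over all alternatives was 0.72 to 1.34 with adjusted p from 0.0554 to 0.939. The part of the cell types in the differences of *Spry4* and *Spred1* was not tested.

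**Figure D4:**
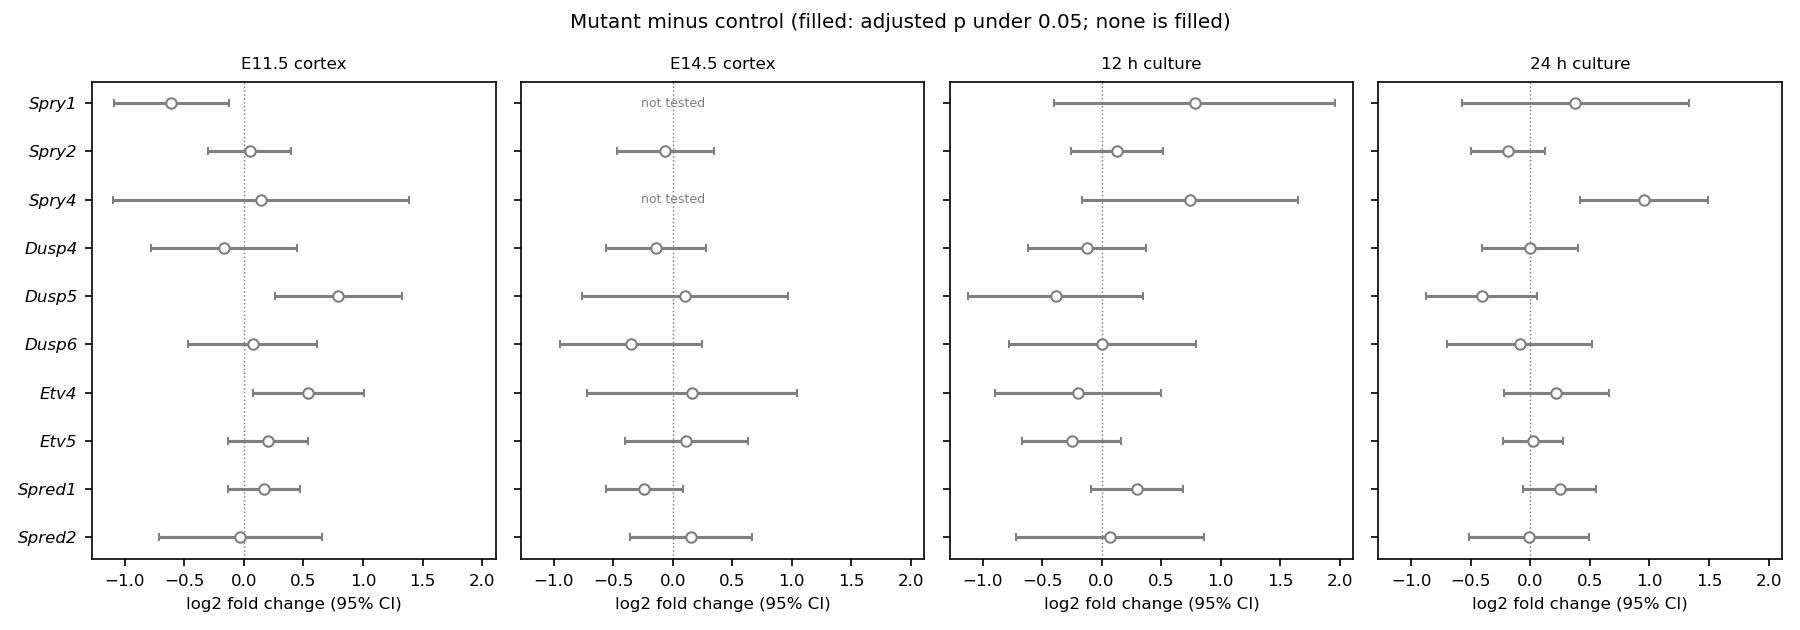
Log2 difference, mutant minus control, of each member with its 95% confidence interval from limma (horizontal axes), in the 4 conditions with 3 libraries per genotype. Open points did not pass an adjusted p of 0.05, and no point is filled. The interval lies to the right of 0 for *Dusp5* and *Etv4* at E11.5 and *Spry4* at 24 hours, and to the left for *Spry1* at E11.5.

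Whether the response to culture or age differed between the genotypes was tested with interaction terms. None of the members passed for culture of 12 hours (0% of all genes), culture of 24 hours (0%), culture time (0%) or age (0%). For *Spred1* the term was 0.54 at 12 hours (SE 0.21, limma adjusted p 0.793) and 0.48 at 24 hours (SE 0.20, adjusted p 0.786), with a larger log2 change in mutants. It was the 1 member with an unadjusted p under 0.05 in these 2 tests by limma, against 5.32% and 6.16% of all genes, and edgeR and DESeq2 also had 1 each. For culture time and age the count at an unadjusted p under 0.05 was 0 in limma, against 2.38% and 7.84% of all genes. The 95% interval of the 12-hour term was -0.35 to 0.73 for *Spry2* and -0.76 to 2.32 for *Spry4*, on the log2 scale.

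The other genes of the pathway were counted by role in the 12-hour culture against E14.5 cortex. In that comparison 14.1% of all genes tested rose and 16.1% fell. Of the other inhibitors 8 of 17 tested rose and 2 fell, with a median log2 change of 0.38. *Spred3*, the third Spred gene, rose most, by 2.72 (limma adjusted p 2.20e-07), followed by the phosphatase genes *Dusp8* (1.01) and *Dusp1* (0.80). The fallen inhibitors were *Dusp7* (-0.67) and *Socs4* (-0.43). In the list of other ERK-induced genes 11 of 17 rose and 3 fell (median 0.78). That list also holds *Bcl2l11*, which is not known to be induced by ERK. The immediate-early factors *Egr1* (5.32, limma adjusted p 1.13e-12), *Fos* (4.86) and *Fosb* (2.63) led the rise, and *Ets1* (-1.82), *Ets2* (-0.56) and *Flrt3* (-0.35) fell. *Egr1* counts lay from 21.2 to 31.3 in E14.5 cortex and from 932 to 1474 at 12 hours.

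The kinases and adaptors between receptor and ERK were counted in the same way. Here too 14.1% of all genes tested rose and 16.1% fell. Of 21 tested 4 rose and 1 fell, with a median of 0.002 on the log2 scale. Among the risen genes were the scaffold gene *Ksr1* (0.48) and the MEK gene *Map2k2* (0.38), and the adaptor gene *Gab1* fell (-0.89). Of 7 receptor genes tested *Fgfr1* rose (0.83), while *Erbb2* (-1.96), *Fgfr3* (-1.78) and *Fgfr2* (-1.10) fell. Of 9 tested genes of the ligand list *Hbegf* (1.10) and *Nrg1* (0.62) rose, and *Tgfa* (-1.48) and *Fgf13* (-0.57) fell. *Fgf13* was listed by its family name, and its product is not known as a secreted ligand of FGF receptors. Between 12 and 24 hours, where 0.15% of all genes rose and 0.142% fell, only 3 listed genes passed. All were among the ERK-induced genes: *Egr1* fell by 0.62 on the log2 scale (lower in 6 of 6 embryos), and *Ccnd1* (0.70) and *Ier3* (0.94) rose. None of the 5 lists had a gene past the threshold between the genotypes in any condition.

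**Figure D5:**
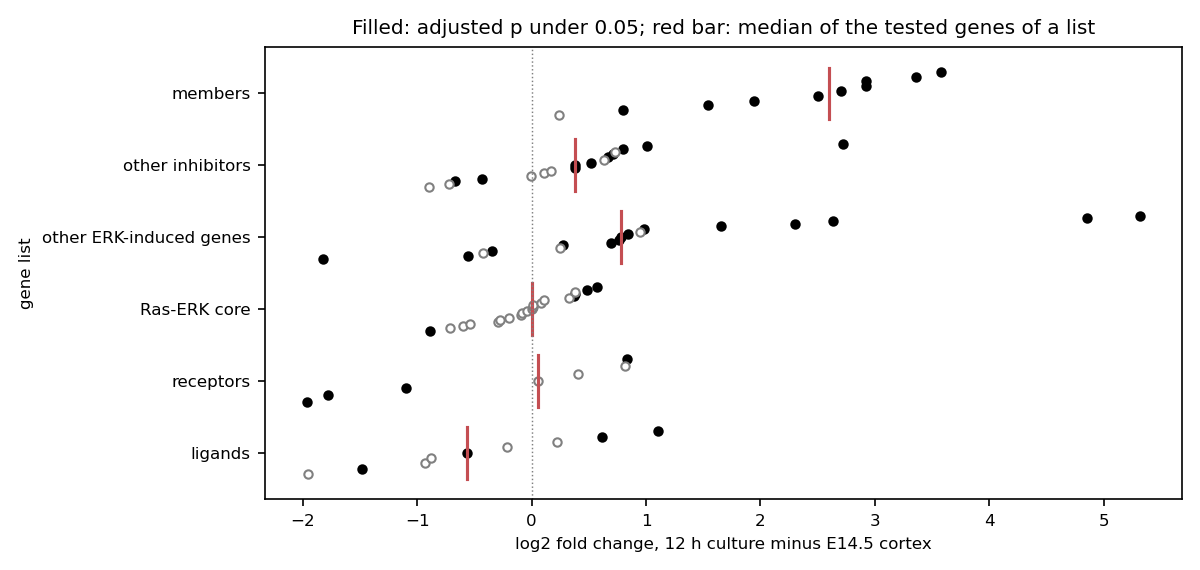
Log2 fold change at 12 hours of culture against E14.5 cortex (horizontal axis) for the tested genes of each list (rows), with filled points past an adjusted p of 0.05 and a red bar at the median of the list. The members' median is 2.60, that of the other inhibitors 0.38 and that of the other ERK-induced genes 0.78.

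Between E11.5 and E14.5, where 23.8% of all genes tested rose and 29.3% fell, 4 of 12 tested genes of the ligand list rose and 3 fell. The median log2 change of the list was 0.21. Of the fallen, *Fgf8* had 13.4 to 39.99 at E11.5 and 0 to 5.08 at E14.5, *Fgf17* 12.3 to 30.3 and 0 to 8.61, and *Fgf15* 209.9 to 453 and 36.6 to 119. All 3 passed the test (limma adjusted p 6.07e-05, 6.49e-04 and 1.73e-06). The rises were led by *Tgfa* (2.57), *Fgf13* (1.498) and *Nrg1* (0.64), of which *Fgf13* is in the list by family name only. Of 7 receptor genes 5 fell, led by *Erbb2* (-1.14), *Egfr* (-1.11) and *Fgfrl1* (-0.87), and *Erbb4*, a receptor of neuregulins, rose (1.53). Of the other inhibitors 8 of 19 fell and 4 rose (median -0.36). The largest falls were those of the phosphatase gene *Dusp9* (-3.70), *Il17rd* (-2.02), which encodes the FGF antagonist Sef, and *Lrig3* (-1.96), and the largest rises those of *Dusp8* (1.42), *Socs5* (0.68) and *Rasa1* (0.33). Of the other ERK-induced genes 7 of 14 fell and 3 rose, with *Ccnd1* (-2.91), *Elk3* (-0.92) and *Ier2* (-0.80) furthest down and *Egr3* (2.21), *Phlda1* (0.77) and *Etv1* (0.27) up. The kinases and adaptors split evenly, with 7 of 21 up (*Grb2* 0.50, *Mapk3* 0.41 and *Frs2* 0.38 leading) and 7 down (*Shc1* -1.34, *Map2k1* -0.87 and *Rps6ka1* -0.78 leading).

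For 9 members the gene outside the list with the most similar pattern was found by the Pearson correlation of log2 counts over the 24 libraries. These libraries fall into cortex and culture and share embryos, so the values describe mainly that division and carry no test. For the Sprouty genes these were *Gadd45a* (r = 0.85) for *Spry1*, *Klf6* (r = 0.98) for *Spry2* and *Hmgcs1* (r = 0.96) for *Spry4*. The phosphatase genes were nearest to *Kcnc1* (r = 0.98) for *Dusp4*, *Vav3* (r = 0.96) for *Dusp5* and *Acsl4* (r = 0.97) for *Dusp6*. *Etv4* was nearest to *Lgals1* (r = 0.96) and *Etv5* to *Slc20a1* (r = 0.97). The gene nearest to *Spred2* was *Maff* (r = 0.87).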

How the data were processed

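RNA was taken from 12 cortices and 12 cultures, 1 library per embryo and condition, and embryos are separate animals. The authors prepared libraries with the QuantSeq 3′ kit (FWD), aligned reads to GRCm38 with TopHat 2.0.10 and Bowtie 1.0.0, and counted them by strand with HTSeq-count 0.6.1 on GENCODE vM20. The authors deposited 1 table of signal, read counts each divided by 1 size factor per library. In 23 libraries the step between low values gave whole reads (100% of values above 0, within 0.1 read). For E11.5 control D this could not be told from rounding, and count tests were run only without E11.5. Positions are from GENCODE vM21 and promoters from RefSeq.

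The fits took genes whose mean over the compared libraries reached 10, with limma (3.58.1, R 4.3.3, intensity trend) on log2 of the value plus 1, Benjamini-Hochberg adjustment and calls at an adjusted p under 0.05. edgeR 4.0.16 and DESeq2 1.42.0 on whole reads were alternatives, as were a pseudocount of 0.1 or 5, no filter or one at 50, TMM, quantile normalization, all 24 libraries in one fit, each genotype alone, terms for sex, name prefix (as in the titles) or *Gm42418*, the embryo as a block, and leaving out libraries. The steps were tested on simulated data with 200 genes changed 2-fold. Between genotypes at 24 hours 155 of them were called with 3 false calls, and for 12-hour culture against cortex 178 with 8. The simulated spread was set beforehand and held no embryo effect, so it does not show what change in the members could have been found. Samples with one number came from the same embryo, and their deviations from the group mean correlated at -0.11 to 0.24. Leaving out embryos 5 and 6 was chosen after seeing the data. Named genes are the members, *Cep135*, up to 3 risen and 3 fallen genes of each pathway list in 3 comparisons (12-hour culture against E14.5 cortex, age, culture time), any listed gene past the threshold between genotypes, and each member's nearest gene. Of the genes this rule names, 2 are not reported here. The members and lists were chosen with earlier results of these data known.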

Additional observations from a re-analysis of the deposited data

Results flagged for a closer look

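Of the 40 sets of 6 libraries (10 members in 4 conditions) 4 held a library far from the other 5, where chance gives about 1 set in 20. *Spry4* at 12 hours was 222 in mutant 6, against 55.2 to 83.5 in the other 5 cultures. *Dusp6* at 24 hours was 848 in control 3, against 281 to 471 in the others. *Etv5* at E11.5 was 298 in mutant A, against 204 to 233. *Spry1* at E14.5 was 6.97 in control 5, against 9.41 to 10.2, and these values rest on 8 to 14 reads.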

How the results depend on the processing

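The counts of members past the threshold were 7 to 10 at 12 hours of culture, 9 to 10 at 24 hours and 3 to 6 between the ages. They were 0 for culture time, genotype and interactions under every alternative run. In the main fits 14.1% of all genes rose and 16.1% fell at 12 hours, and 20.1% and 21.5% at 24 hours. Between the ages 23.8% rose and 29.3% fell. The share of all genes is not given for each alternative, so a move of these counts is not read as particular to the members. All 24 libraries in one fit gave 10 at 12 hours, and controls only or a term for *Gm42418* gave 7. The count of 3 came with a mean of at least 50, which left 5 members to test. With the embryo as a replicate block the counts were 9 at 12 hours, 10 at 24 hours and 0 for culture time and the 3 interactions with culture, so no call changed. Leaving out 1 library or embryo gave 9 at 12 hours, 9 to 10 at 24 hours and 5 to 6 between the ages.

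Directions turned only for changes that had not passed. Between the ages *Spred2* turned when 1 library was left out (-0.22 to 0.023) and in mutants only (0.0373). *Spred1* at 12 hours was -0.030 in controls only, and without embryos 5 and 6 the changes of *Spry1* (-0.07), *Dusp5* (-0.02) and *Dusp6* (0.22) between culture times turned. The cause was not tested. For culture time and genotype, where no member passed, turned directions under the other alternatives are not listed for every member. The fold of *Spry4* in culture is limited by the 4 to 12 reads per library in E14.5 cortex.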
